A study of Mus musculus with 8 samples.

Results

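Iron is stored, imported, exported and sensed in cells by a small set of proteins, and 10 of their genes were followed here in classical monocytes (Ly6C-high) sorted from the marrow of mice. They were the ferritin chains Fth1 and Ftl1, the ferritin receptor Ncoa4, the importers Tfrc, Slc11a1 and Slc11a2, the exporter Slc40a1, the haem-degrading enzyme Hmox1 and the iron sensors Aco1 and Ireb2. The genes were picked by symbol, after Fth1 had been seen to be lower in all 3 knockouts, so the difference of Fth1 from wild type is a description here and carries no test. All 10 had 1 row each among the 13744 genes of the deposited table, and all 10 passed the filter of a mean of at least 1 CPM (counts per 1000000), as did 12752 genes in all. The series asked about factors that promote nonclassical monocytes, and its 8 bulk RNA libraries fell into 4 genotypes with 2 each. These were wild type, Bcl6 cKO (by its usual reading a conditional knockout of the repressor Bcl6), Irf2 KO and Nr4a1 KO. By their labels, the last 2 lack interferon regulatory factor 2 and the nuclear receptor Nr4a1. All groups shared the tissue and the cell type, and no treatment is named for any of them. Age, sex, the strain, batches, the mice behind each replicate, the deleted exons and the driver of the Bcl6 deletion were not found in the labels, so p-values measure the spread between these libraries, which may be technical.

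Ferritin is a hollow shell of heavy and light chains: the heavy chain, Fth1, oxidises iron so that it can be stored, and the light chain, Ftl1, helps the mineral core to form. Iron regulatory proteins, encoded by Aco1 and Ireb2, bind a short RNA hairpin, the iron-responsive element, when iron is scarce. Bound ahead of the coding part they block translation of ferritin and ferroportin messages, and bound behind it they protect the transferrin receptor message from decay. Monocytes and the macrophages they give rise to take up, store and recycle iron, and hold it back from microbes.

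The hairpins were searched for in the longest protein-coding transcript of each gene, because they mark which of the 10 messages iron regulatory proteins are known to bind. The search asked for a C, 5 bases, the loop letters CAGTGN and 5 bases that pair with the first 5, G with T allowed. Each window of 30 bases is printed 5′ to 3′ on the gene's strand in GRCm38 (mm10) coordinates, written as DNA, with the loop letters in capitals.
Fth1 5′ UTR, chr19:9982732-9982761, plus strand: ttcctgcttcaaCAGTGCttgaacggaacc
Ftl1 5′ UTR, chr7:45459778-45459807, minus strand: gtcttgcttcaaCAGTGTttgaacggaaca
Slc40a1 5′ UTR, chr1:45925464-45925493, minus strand: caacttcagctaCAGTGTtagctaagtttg
Tfrc 3′ UTR, chr16:32631219-32631248, plus strand: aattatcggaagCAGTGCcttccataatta
Tfrc 3′ UTR, chr16:32631598-32631627, plus strand: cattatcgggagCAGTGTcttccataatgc
Tfrc 3′ UTR, chr16:32631663-32631692, plus strand: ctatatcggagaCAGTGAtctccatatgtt
Tfrc 3′ UTR, chr16:32631710-32631739, plus strand: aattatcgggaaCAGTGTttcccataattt
Slc11a2 3′ UTR, chr15:100395152-100395181, minus strand: agccatcagagcCAGTGTgtttctatggtt
The Slc11a2 window pairs at only 4 of the 5 positions, and Ncoa4, Slc11a1, Hmox1, Aco1 and Ireb2 had no match in a UTR, which says only that these letters are not there. Among genes tested, 13 of 10152 5′ UTRs (0.128%) and 73 of 10277 3′ UTRs (0.710%) held a match with all 5 pairs.

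**Figure D1:**
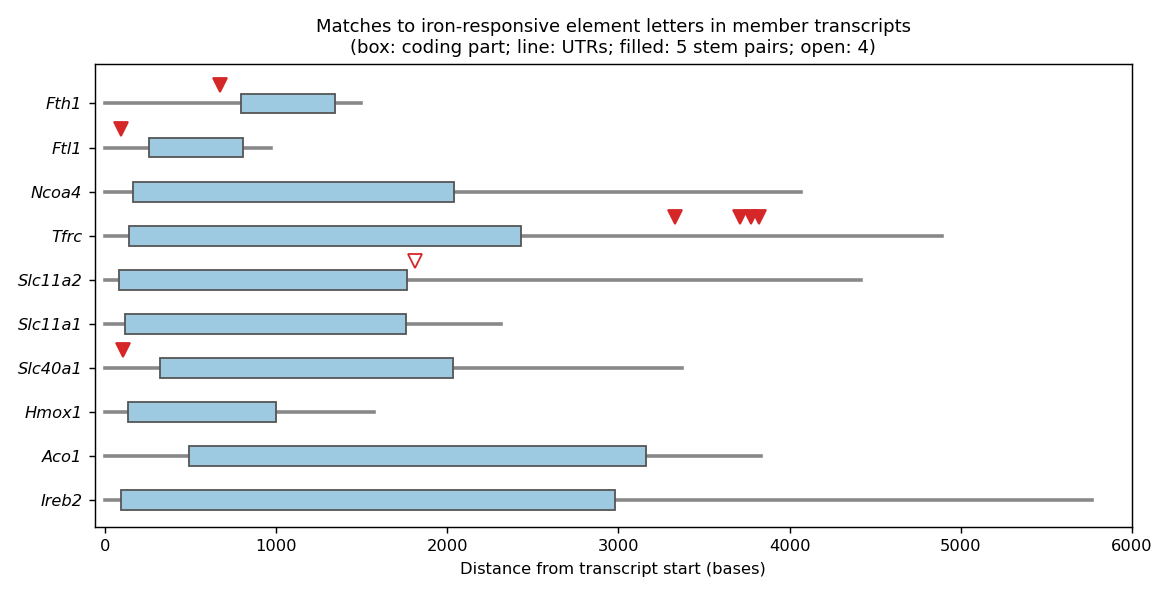
Position of matches to the iron-responsive element letters in the longest protein-coding transcript of each gene, in bases from the transcript start. Boxes are coding parts, lines are UTRs, filled triangles pair at 5 stem positions and the open one at 4; Fth1, Ftl1 and Slc40a1 carry theirs ahead of the coding part and Tfrc carries 4 behind it.

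The libraries held 46617756 to 62633123 reads in genes, so that 1 CPM stood for 47.9 to 61.8 reads. As a check of the labels, Nr4a1 was 2.31 ± 0.27 (log2, SE, n = 2 against 2) lower in Nr4a1 KO than in wild type (limma, adjusted p = 0.000622). Irf2 was 0.56 ± 0.14 lower in Irf2 KO (limma, adjusted p = 0.0222), where 4370 and 5651 reads remained, against 8388 and 7236 in wild type. Bcl6 went against its label: it stood at 4.66 and 4.64 log2 CPM in wild type and at 6.53 and 6.40 in the libraries labelled Bcl6 cKO (limma, adjusted p = 0.00233). Counts over a whole gene do not show whether some of its exons were deleted, but every direction given for the libraries labelled Bcl6 cKO rests on that label. Nr4a1 was also 2.41 ± 0.27 lower in Irf2 KO (limma, adjusted p = 0.00163). Setting all libraries to the same median raised log2 fold changes against wild type by 0.07 (Bcl6 cKO), 0.10 (Irf2 KO) and 0.13 (Nr4a1 KO). Of all calls against wild type, 27.1%, 42.9% and 26.1% were higher as deposited, and 40.7%, 59.3% and 50.7% were higher after that centring. The 3 comparisons with wild type share the same 2 wild type libraries.

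Fth1 was the member with the widest differences between groups. Its level was 11.12 and 9.94 log2 CPM in wild type, 6.999 and 7.70 in the libraries labelled Bcl6 cKO, 7.70 and 8.46 in Irf2 KO, and 7.08 and 7.16 in Nr4a1 KO. Every one of the 6 knockout libraries lay below both wild type libraries, which restates the pattern that chose the set. The nearest pair was wild type replicate 2 and Irf2 KO replicate 2, at 9.94 and 8.46. In reads, wild type replicate 1 held 129177 and replicate 2 held 50442, against 6867 to 19275 in the knockouts. The fitted log2 differences from wild type were -3.18 ± 0.39 (Bcl6 cKO), -2.45 ± 0.39 (Irf2 KO) and -3.41 ± 0.39 (Nr4a1 KO), or 9.09-fold, 5.46-fold and 10.6-fold lower. The wild type libraries themselves were far apart, and the differences without replicate 1 were -2.59, -1.86 and -2.82, against -3.77, -3.04 and -4.00 without replicate 2. Corrected for GC content and length, they were -3.12, -2.33 and -3.28. The order of the means was wild type, Irf2 KO, Bcl6 cKO and Nr4a1 KO. Among the knockouts, Irf2 KO was 0.73 ± 0.39 above the libraries labelled Bcl6 cKO (limma, adjusted p = 0.258) and 0.96 ± 0.39 above Nr4a1 KO (limma, adjusted p = 0.108). The second difference passed the threshold once wild type replicate 1 (limma, adjusted p = 0.0471) or replicate 2 (limma, adjusted p = 0.0462) was left out of the shared fit. Nr4a1 KO and the libraries labelled Bcl6 cKO overlapped, at a difference of -0.23 (95% interval -1.11 to 0.65). In bulk RNA, fewer cells of a type and less RNA per cell cannot be told apart, for Fth1 and for each gene that follows.

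**Figure D2:**
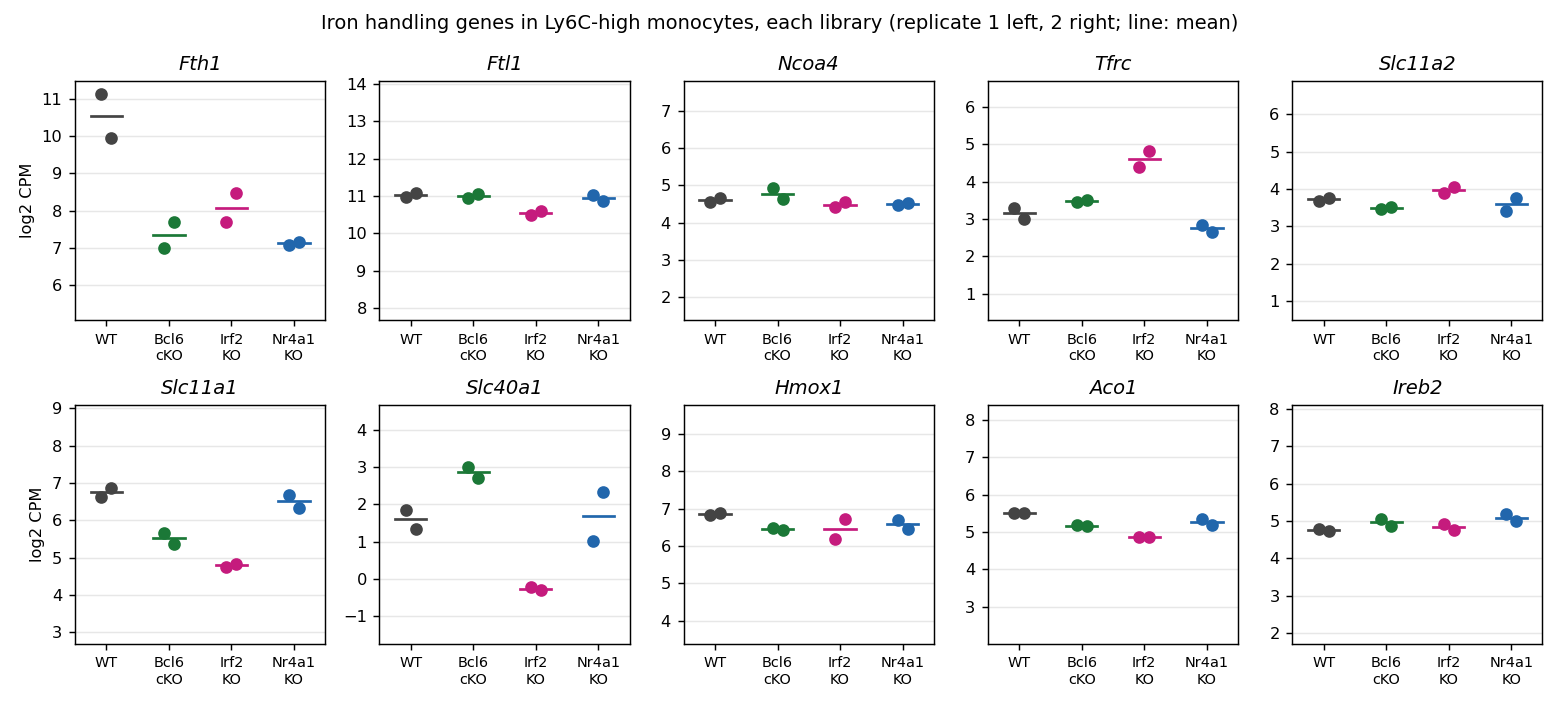
Level of each of the 10 genes in log2 CPM, 1 point per library (replicate 1 on the left, replicate 2 on the right) and a line at the mean of 2; all panels span the same number of log2 units. Fth1 stands at 11.12 and 9.94 in wild type and between 6.999 and 8.46 in the knockouts, while Ftl1 stays between 10.48 and 11.08.

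The light chain did not show the pattern of the heavy chain. Ftl1 stood at 10.97 and 11.08 log2 CPM in wild type, 10.96 and 11.04 in the libraries labelled Bcl6 cKO, 11.03 and 10.88 in Nr4a1 KO, and 10.48 and 10.60 in Irf2 KO. Both Irf2 KO libraries lay below the other 6, which overlapped among themselves. Ftl1 fell in Irf2 KO by 0.49 ± 0.10 on the log2 scale (limma, adjusted p = 0.0112), a call lost without wild type replicate 2 (limma, adjusted p = 0.0712) or Irf2 KO replicate 1 (limma, adjusted p = 0.0662). The differences from wild type were -0.03 (95% interval -0.25 to 0.20; limma, adjusted p = 0.911) in the libraries labelled Bcl6 cKO and -0.07 (95% interval -0.29 to 0.15; limma, adjusted p = 0.669) in Nr4a1 KO. Both turned positive once the libraries were set to 1 median.

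The ratio between the chains followed Fth1. Per kilobase of 1 annotated transcript of each gene (929 bases for Fth1, 968 for Ftl1), the ratio of Fth1 to Ftl1 reads was 1.16 and 0.472 in wild type. It was 0.0671 and 0.102 in the libraries labelled Bcl6 cKO, 0.151 and 0.238 in Irf2 KO and 0.0672 and 0.0794 in Nr4a1 KO. The ratio was thus lower in all 6 knockout libraries, and its geometric mean was 8.92, 3.90 and 10.1 times higher in wild type. Fth1 chose the set, and Ftl1 differed far less between libraries. This ratio, and the rank of Fth1 given below, therefore restate the lower Fth1 and carry no test. Over the union of all annotated exons, which is longer for Fth1 (3469 bases) than for Ftl1 (1340 bases), the same ratio was 0.430 and 0.175 in wild type and 0.0249 to 0.0880 in the knockouts. Which chain had more reads per length in wild type replicate 1 thus depends on the length used. The order of the libraries cannot change with it, since each length is the same for all libraries. Ranked by RPKM (reads per kilobase, scaled to library size) over the exon union, Fth1 was 103rd and 261st of 12740 genes in wild type and between 756th and 1621st in the knockouts, whereas Ftl1 kept a rank of 30 to 65 in all 8 libraries. Ncoa4, which carries ferritin to the lysosome so that its iron is released, ranged from 4.43 to 4.91 log2 CPM over the 8 libraries, and no comparison passed the test (limma, adjusted p from 0.573 to 0.686 against wild type).

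Import genes moved in separate directions. Tfrc, the transferrin receptor that brings in iron bound to transferrin, stood at 3.29 and 3.003 log2 CPM in wild type (566 and 411 reads), 3.44 and 3.51 in the libraries labelled Bcl6 cKO, 4.39 and 4.81 in Irf2 KO (1014 and 1536 reads), and 2.84 and 2.65 in Nr4a1 KO (364 and 300 reads). Both Irf2 KO libraries were above the other 6, and both Nr4a1 KO libraries were below them. Tfrc rose 2.74-fold in Irf2 KO (log2 1.46 ± 0.20; limma, adjusted p = 0.00307), a call kept in each of the 20 alternative fits. The difference in Nr4a1 KO was -0.40 (95% interval -0.86 to 0.05; limma, adjusted p = 0.217) and in the libraries labelled Bcl6 cKO it was 0.33 (95% interval -0.13 to 0.79; limma, adjusted p = 0.394). Irf2 KO also exceeded Nr4a1 KO, by 1.86 ± 0.20 (limma, adjusted p = 0.000451), again in every alternative fit run.

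Slc11a2 (DMT1), which moves iron out of the endosome once transferrin has released it, ran from 3.42 to 4.05 log2 CPM. Its 2 Irf2 KO libraries, 3.89 and 4.05, were the highest, yet no comparison passed the test (against wild type 0.25 ± 0.17 in Irf2 KO; limma, adjusted p = 0.331). Its relative Slc11a1 (NRAMP1), which pumps iron and other divalent metals out of phagosomes and limits the growth of microbes there, changed the most among the importers. It stood at 6.64 and 6.87 log2 CPM in wild type and 6.68 and 6.33 in Nr4a1 KO, against 5.66 and 5.38 in the libraries labelled Bcl6 cKO and 4.76 and 4.84 in Irf2 KO. Wild type and Nr4a1 KO overlapped, and the 4 other libraries lay below them with no overlap between the libraries labelled Bcl6 cKO and Irf2 KO. Slc11a1 fell 3.86-fold in Irf2 KO (log2 -1.95 ± 0.16; limma, adjusted p = 0.00104) in each of 20 alternative fits. In the libraries labelled Bcl6 cKO it fell 2.35-fold (log2 -1.23 ± 0.16; limma, adjusted p = 0.00589), a call that narrowly missed the threshold without Bcl6 cKO replicate 1 (limma, adjusted p = 0.0525). The difference in Nr4a1 KO was -0.25 (95% interval -0.61 to 0.11; limma, adjusted p = 0.332). Neutrophils also express Slc11a1, and the summed level of 13 neutrophil markers was 2264 and 1914 CPM in wild type, 1260 and 1049 in the libraries labelled Bcl6 cKO, 521 and 1211 in Irf2 KO and 2588 and 2148 in Nr4a1 KO. S100a8 had the most reads of the 13 in each library (58864 and 36368 in wild type, 7555 and 24031 in Irf2 KO). Ly6g had 60 and 95 reads in wild type, 35 and 40 in the libraries labelled Bcl6 cKO, 30 and 116 in Irf2 KO and 62 and 190 in Nr4a1 KO. Of the 13, 7 fell and 0 rose in Irf2 KO, where 12.3% of all genes fell. The part of neutrophils in the Slc11a1 result was not tested.

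Slc40a1 (ferroportin), the only known exporter of iron from mammalian cells, was the member with the fewest reads. Its counts were 210 and 129 reads in wild type, 494 and 342 in the libraries labelled Bcl6 cKO, 41 and 44 in Irf2 KO and 103 and 242 in Nr4a1 KO. As log2 CPM these were 1.86 and 1.34, 2.999 and 2.71, -0.22 and -0.29, and 1.02 and 2.34. The libraries labelled Bcl6 cKO were the highest and Irf2 KO the lowest, while the Nr4a1 KO libraries lay on either side of wild type. Slc40a1 fell 3.62-fold in Irf2 KO (log2 -1.86 ± 0.42; limma, adjusted p = 0.0175). That call was lost without wild type replicate 1 (limma, adjusted p = 0.0899), Irf2 KO replicate 1 (limma, adjusted p = 0.0675) or Irf2 KO replicate 2 (limma, adjusted p = 0.0789). In the libraries labelled Bcl6 cKO it was 1.26 ± 0.42 above wild type (limma, adjusted p = 0.132), which passed when Nr4a1 KO replicate 1 (limma, adjusted p = 0.0367) or replicate 2 (limma, adjusted p = 0.0407) was left out or only those 2 groups were fitted (limma, adjusted p = 0.0324). The direct difference between Irf2 KO and the libraries labelled Bcl6 cKO was 8.67-fold (log2 -3.12 ± 0.42; limma, adjusted p = 0.00516). It was lost without Bcl6 cKO replicate 1 (limma, adjusted p = 0.0611) or replicate 2 (limma, adjusted p = 0.0501). Iron-recycling macrophages express much Slc40a1, and the sum of 7 macrophage markers was 158 and 172 CPM in wild type, 178 and 176 in the libraries labelled Bcl6 cKO, 92.4 and 74.5 in Irf2 KO and 177 and 172 in Nr4a1 KO. Most of that sum was Adgre1, and the 6 others summed to 19.0 and 27.0 CPM in wild type, 37.2 and 44.5 in the libraries labelled Bcl6 cKO, 24.1 and 15.2 in Irf2 KO and 14.3 and 20.97 in Nr4a1 KO. Those 6 include Mertk, a receptor for the uptake of dying cells, so its reads are part of their sum. Mertk had 37 and 26 reads in wild type, 676 and 798 in the libraries labelled Bcl6 cKO and 6 to 44 in the other knockouts. Of the 6 markers that passed the filter, Adgre1 among them, 0 rose and 0 fell in the libraries labelled Bcl6 cKO. Mertk was below the filter, and with no filter it rose in the libraries labelled Bcl6 cKO (log2 4.48; limma, adjusted p = 0.0435). The defining markers Spic, Cd5l, Marco, C1qa and C1qc had no row in the table, and the part of such cells in the Slc40a1 result was not tested.

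Hmox1, which frees iron from haem, stood at 6.83 and 6.89 log2 CPM in wild type and between 6.18 and 6.73 in the knockouts. All 6 knockout libraries were below both wild type libraries, but the differences of -0.40 in Irf2 KO, -0.28 in Nr4a1 KO and -0.41 in the libraries labelled Bcl6 cKO (each ± 0.17) did not pass (limma, adjusted p = 0.132, 0.320 and 0.218). Without Irf2 KO replicate 2 the Irf2 KO difference was -0.68 and passed (limma, adjusted p = 0.0345). Among all genes tested, 1654 of 12752 had every knockout library below both wild type libraries, as did 3 of the 10 genes followed here, namely Fth1, which chose the set, Hmox1 and Aco1.

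Of the sensors, Aco1 passed the test and Ireb2 did not. Aco1 encodes iron regulatory protein 1, which serves as cytosolic aconitase when it holds an iron-sulphur cluster, and stood at 5.52 and 5.52 log2 CPM in wild type, 5.18 and 5.16 in the libraries labelled Bcl6 cKO, 4.87 and 4.88 in Irf2 KO and 5.34 and 5.20 in Nr4a1 KO. The Irf2 KO libraries were the lowest of the 8 and overlapped no other group. Aco1 fell by 0.65 ± 0.11 on the log2 scale in Irf2 KO (limma, adjusted p = 0.00683), in each of 20 alternative fits. The differences in the libraries labelled Bcl6 cKO and in Nr4a1 KO were -0.35 ± 0.11 and -0.25 ± 0.11 (limma, adjusted p = 0.122 and 0.182). Ireb2, iron regulatory protein 2, which is destroyed when iron is plentiful, ranged from 4.73 to 5.18 log2 CPM. Its largest difference from wild type, 0.34 ± 0.13 in Nr4a1 KO, did not pass (limma, adjusted p = 0.130), although it did after the libraries were set to 1 median (limma, adjusted p = 0.0496).

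**Figure D3:**
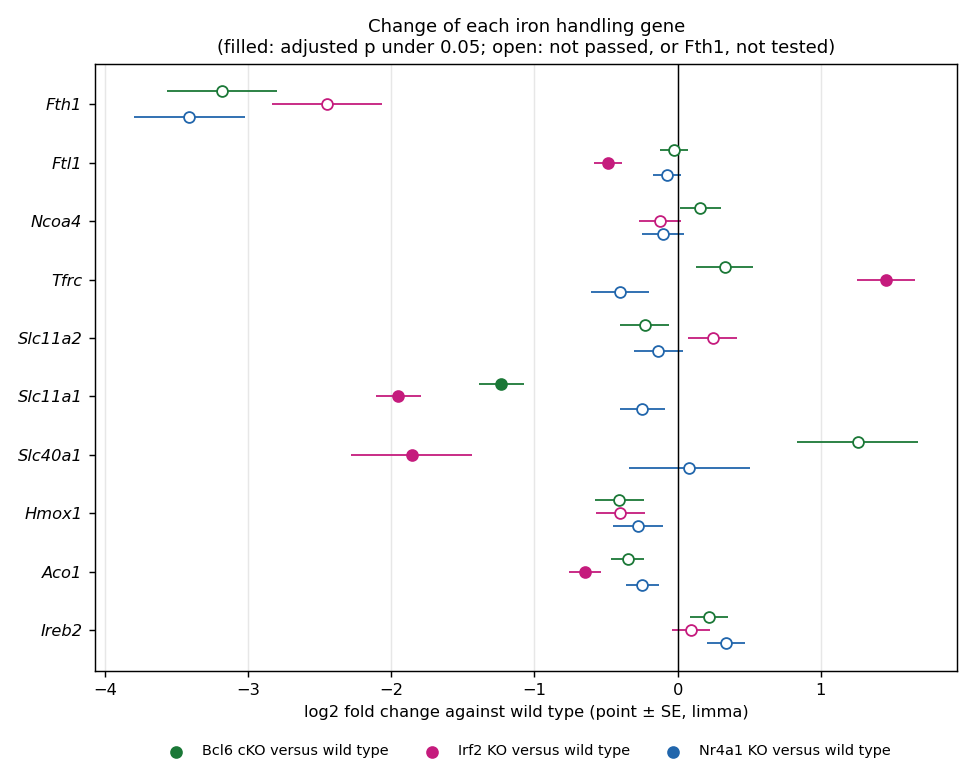
Log2 fold change of each gene against wild type in the 3 knockouts, as the limma estimate ± SE (8 libraries, 2 per genotype); filled points passed an adjusted p of 0.05 and Fth1 carries no test. In Irf2 KO, Tfrc (1.46) lies on the right and Slc11a1 (-1.95) and Slc40a1 (-1.86) on the left, while in Nr4a1 KO no filled point appears.

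Counted over the 9 genes other than Fth1, Irf2 KO had 1 rise (Tfrc) and 4 falls (Ftl1, Slc11a1, Slc40a1 and Aco1), where 21.6% of all genes were called (9.26% higher and 12.3% lower). Setting 1 median for all libraries changed none of these 5 directions. The libraries labelled Bcl6 cKO had 1 fall (Slc11a1), where 5.01% of all genes were called (1.36% higher and 3.65% lower). Nr4a1 KO had 0 calls by limma, where 15.1% of all genes were called (3.94% higher and 11.2% lower); 1 of the 9 (Ireb2) had an unadjusted p under 0.05, as did 30.2% of all genes, and both limma voom on recovered reads and the authors' deposited table called 0. The median log2 fold changes of the 9 genes were -0.40 in Irf2 KO, -0.14 in Nr4a1 KO and -0.03 in the libraries labelled Bcl6 cKO, beside -0.04, 0.01 and -0.01 over all genes tested.

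Between the knockouts all 10 were tested, since the fall of Fth1 that chose the set was against wild type. The genes were picked with earlier results of these data known, so these comparisons may not be free of that choice. Irf2 KO differed from Nr4a1 KO in 5 of 10 genes, 1 higher (Tfrc) and 4 lower (Ftl1, Slc11a1, Slc40a1 and Aco1), where 22.3% of all genes were called (12.4% higher and 9.94% lower). The largest of these falls were in Slc40a1 (log2 -1.94 ± 0.42; limma, adjusted p = 0.0129) and Slc11a1 (log2 -1.70 ± 0.16; limma, adjusted p = 0.000224). Tfrc and Slc11a1 kept their calls in all 19 alternatives. The Slc40a1 call was lost with only the 2 groups compared (limma, adjusted p = 0.0597). It was also lost without Irf2 KO replicate 1 (log2 -1.97) or replicate 2 (log2 -1.90). The call for Ftl1 (log2 -0.41 ± 0.10, limma, adjusted p = 0.0176) was lost with no trend (limma, adjusted p = 0.0684). It was also lost without Irf2 KO replicate 1 (log2 -0.36) or Nr4a1 KO replicate 1 (log2 -0.34). The Aco1 call (log2 -0.40 ± 0.11, limma, adjusted p = 0.0356) was the least firm. It was lost with no trend (limma, adjusted p = 0.0586) and with only the 2 groups compared (limma, adjusted p = 0.0940). It was kept without Nr4a1 KO replicate 2 but lost without any other single library.

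Irf2 KO differed from the libraries labelled Bcl6 cKO in 4 of 10 genes, with Tfrc higher (log2 1.13 ± 0.20; limma, adjusted p = 0.0137) and Ftl1 (-0.46), Slc11a1 (-0.72) and Slc40a1 (-3.12) lower, where 9.55% of all genes were called (3.87% higher and 5.68% lower). None of the 4 kept its call when Bcl6 cKO replicate 1 or Bcl6 cKO replicate 2 was left out, with adjusted p values from 0.0501 to 0.156 by limma. Ftl1 and Slc11a1 also lost theirs with no trend (limma, adjusted p = 0.0898 and 0.0755) and without either Irf2 KO library. Tfrc lost its call without Irf2 KO replicate 2 (log2 0.91). Nr4a1 KO differed from the libraries labelled Bcl6 cKO in 1 of 10 genes, where 5.75% of all genes were called (0.776% higher and 4.97% lower). That gene was Slc11a1, higher in Nr4a1 KO by 0.98 ± 0.16 (limma, adjusted p = 0.00735), a call lost without Bcl6 cKO replicate 2 (limma, adjusted p = 0.0915). Tfrc was 0.73 ± 0.20 lower in Nr4a1 KO than in the libraries labelled Bcl6 cKO (limma, adjusted p = 0.0774).

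Beyond these 10 genes, 78 others of iron and haem handling were listed in 8 groups, of which 64 had a row and 62 were tested. In Irf2 KO 6 rose and 6 fell (19.4% of 62), in Nr4a1 KO 2 rose and 7 fell (14.5%), and in the libraries labelled Bcl6 cKO 1 rose and 1 fell (3.23%), beside 21.6%, 15.1% and 5.01% of all genes. Their median log2 fold changes were -0.00, -0.02 and -0.00 in that order.

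In Irf2 KO, 2 of 7 tested genes of uptake and reduction fell and none rose, where 12.3% of all genes fell. Trf, transferrin itself, stood at 8.00 and 8.09 log2 CPM in wild type and at 6.45 and 6.15 in Irf2 KO (log2 -1.75 ± 0.30; limma, adjusted p = 0.00626). Lrp1, a receptor that also clears haem bound to haemopexin, fell by 1.08 ± 0.27 on the log2 scale (limma, adjusted p = 0.0244). Hfe, the haemochromatosis protein that binds the transferrin receptor, was at 4.56 and 4.72 in wild type and 3.03 and 3.64 in Irf2 KO (log2 -1.31 ± 0.21; limma, adjusted p = 0.00534), the only call among 3 tested genes of export and systemic control. Atg7, needed for autophagy (log2 -0.85 ± 0.11; limma, adjusted p = 0.00236), and Bach1, a haem-sensing repressor of Hmox1 and of ferritin genes (log2 -0.71 ± 0.12; limma, adjusted p = 0.00590), fell too. On the other side, Slc25a37 (mitoferrin 1), which carries iron into mitochondria, was at 3.97 and 3.77 log2 CPM in wild type and 4.97 and 5.17 in Irf2 KO (log2 1.20 ± 0.17; limma, adjusted p = 0.00315). Bola2, a partner of glutaredoxin in the handling of iron-sulphur clusters in the cytosol, rose by 0.77 ± 0.11 (limma, adjusted p = 0.00304). These calls, that of Lrp1 excepted, were kept in every alternative fit run. The remaining calls were rises of Bola3 (1.11), Blvrb (1.09), Cpox (0.67) and Prdx1 (0.29) and a fall of Ppox (-0.55). They and Lrp1 were lost in fits that left out 1 of several wild type or Irf2 KO libraries, with adjusted p by limma reaching from 0.0815 for Bola3 to 0.263 for Ppox over the alternatives. For haem synthesis this left 1 rise (Cpox) and 1 fall (Ppox) among 8 tested enzymes.

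**Figure D4:**
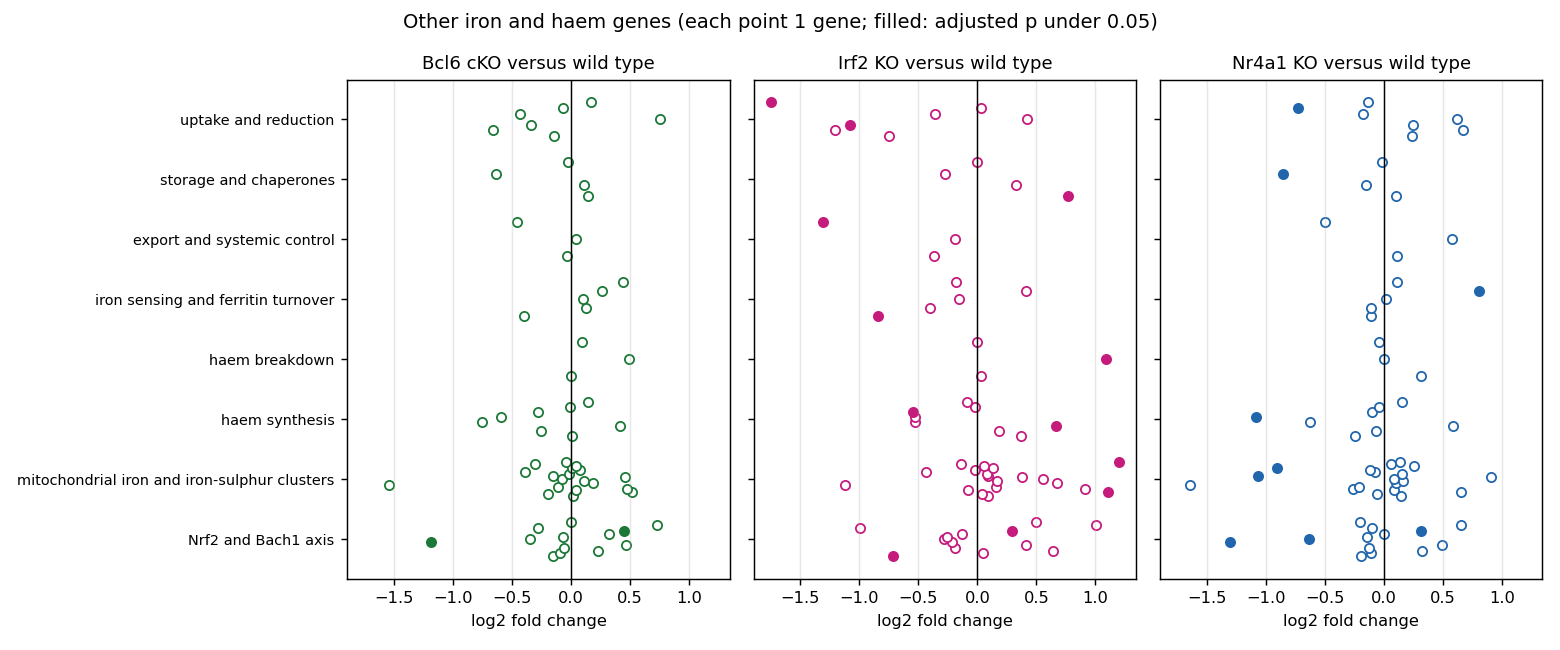
Log2 fold change against wild type of 62 other iron and haem genes in 8 groups, 1 point per gene and 1 panel per knockout; filled points passed an adjusted p of 0.05 by limma. Irf2 KO shows 12 filled points, 6 on each side of 0, Nr4a1 KO shows 9, of which 7 are on the left, and Bcl6 cKO shows 2.

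In Nr4a1 KO, 2 of 19 tested genes of mitochondrial iron and iron-sulphur clusters fell, a share near the 11.2% of all genes that did. Isca1, a late-acting assembly factor, was at 4.33 and 4.51 log2 CPM in wild type and 3.35 and 3.36 in Nr4a1 KO (log2 -1.06 ± 0.15; limma, adjusted p = 0.00158). Nfs1, the cysteine desulphurase that supplies the sulphur, was at 4.82 and 4.89 in wild type and 3.87 and 4.04 in Nr4a1 KO (log2 -0.90 ± 0.16; limma, adjusted p = 0.00667). Steap3, the reductase that acts on iron released from transferrin, was at 4.87 and 4.90 against 4.16 and 4.15 (log2 -0.73 ± 0.12; limma, adjusted p = 0.00469). Neither library of the knockout overlapped wild type for any of the 3, which were named for their small p. Of the 62 tested iron and haem genes, 15 lay below wild type without overlap in Nr4a1 KO and 13 lay above it. Keap1, which holds the antioxidant regulator Nrf2 in check, was at 5.90 and 6.10 in wild type, 4.54 and 4.86 in Nr4a1 KO (log2 -1.30 ± 0.18; limma, adjusted p = 0.00145) and 4.70 and 4.94 in the libraries labelled Bcl6 cKO (log2 -1.18 ± 0.18; limma, adjusted p = 0.00947). The second of these calls was lost without wild type replicate 2 (limma, adjusted p = 0.0521) or Bcl6 cKO replicate 1 (limma, adjusted p = 0.111). Hif1a, a regulator of the response to low oxygen whose protein is marked for destruction by an iron-dependent enzyme, rose in Nr4a1 KO by 0.81 ± 0.14 (limma, adjusted p = 0.00489). The calls in Nr4a1 KO for Isca1, Nfs1, Steap3, Keap1 and Hif1a were kept in every alternative fit. Those for Pcbp1 (-0.85), Mafg (-0.64) and Prdx1 (0.32) were not, with adjusted p by limma reaching 0.216, 0.152 and 0.167. Pcbp1, a chaperone that delivers iron to ferritin, lost its call with no trend (limma, adjusted p = 0.0551) and once corrected for GC content and length. It also lost its call without either wild type library and without Nr4a1 KO replicate 2. Prdx1, a peroxidase, was called in the libraries labelled Bcl6 cKO as well (log2 0.45 ± 0.08, limma, adjusted p = 0.0189). That call was lost with no trend (limma, adjusted p = 0.103) and without any 1 of the 4 libraries compared.

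Marker genes of other cells were read beside these results, and their part in them was not tested beyond the values given. Of all genes, 12.3% were called lower and 9.26% higher in Irf2 KO, and 11.2% and 3.94% in Nr4a1 KO. In the libraries labelled Bcl6 cKO these shares were 3.65% and 1.36%. A single call in a list is not read as a result about its cell type. Developing red cells carry much Tfrc, Slc25a37 and haem synthesis RNA. Of 14 erythroid markers 5 had a row, with sums of 27.6 and 29.7 CPM in wild type, 19.1 and 9.05 in the libraries labelled Bcl6 cKO, 3.56 and 6.66 in Irf2 KO and 10.6 and 17.3 in Nr4a1 KO. Alas2, Klf1, Gata1, Car1, Slc4a1, Epor, Ermap and Rhag had no row, and 4 of the 5 fell in Irf2 KO, where Tfrc and Slc25a37 rose. For 11 markers of dividing cells, which take up more iron, the sums ran from 3294 to 3772 CPM in wild type, 2912 to 3185 in the libraries labelled Bcl6 cKO, 3700 to 3755 in Irf2 KO and 2384 to 2609 in Nr4a1 KO, and in that order of knockouts 4, 2 and 5 markers fell and 0, 2 and 0 rose. The classical monocyte markers, all 10 present, summed to 33904 and 38902 CPM in wild type, 35396 and 36145 in the libraries labelled Bcl6 cKO, 21208 and 23487 in Irf2 KO and 36441 and 39710 in Nr4a1 KO, so the labelled cell type was present in every library. Most of each sum was Lyz2, at 17545 and 20365 RPKM in wild type and 8794 and 9648 in Irf2 KO. Ly6c2 stood at 1368 and 1736 RPKM in wild type and 1826 and 2280 in Irf2 KO. Of the 10, 6 fell in Irf2 KO, 3 rose in Nr4a1 KO and 1 rose in the libraries labelled Bcl6 cKO. Of the 13 neutrophil markers 7 fell in Irf2 KO, 1 in Nr4a1 KO and 3 in the libraries labelled Bcl6 cKO, and of 6 tested macrophage markers 1, 1 and 0 fell, with Mertk left out by the filter. Nonclassical monocyte markers, 9 of 9 tested, had 6, 4 and 1 falls, with 1 rise in the last group, and B cell markers, 4 tested, had 3, 1 and 1. The 9 nonclassical markers include Nr4a1, the gene targeted in Nr4a1 KO, so its fall there follows from the genotype. Of 5 plasmacytoid dendritic markers 3 fell and 1, Bst2, rose in Irf2 KO. Bst2, which interferon also induces, stood there at 349 and 417 CPM, against 83.8 and 158 in wild type, while the 4 others summed to 54.1 and 61.9 against 77.1 and 87.5.

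Among the genes most like Fth1 over the 8 libraries were, by Pearson correlation of log2 CPM among 9890 other genes averaging 4 CPM or more, Prkar1a (r = 0.995), Osgep (0.994), Chmp6 (0.993) and Paf1 (0.991). The 8 points share 4 genotypes and their library depths, so these values describe the pattern and carry no test. Being picked for that likeness, these 4 share the pattern of Fth1 by choice. They were higher in wild type replicate 1 than in replicate 2 and lower in each knockout library than in either wild type library. Osgep, for instance, went from 6.90 and 6.18 log2 CPM in wild type to 3.98 and 4.53 in the libraries labelled Bcl6 cKO, 4.82 and 5.13 in Irf2 KO and 4.26 and 4.30 in Nr4a1 KO. In all, 52 of 9890 genes had an r of at least 0.95 with Fth1, beside 59 for Slc11a1, 59 for Aco1, 41 for Ftl1, 34 for Tfrc and 0 for Ncoa4 and Hmox1. No other member was among those 52, and the member r values with Fth1 ran from -0.79 (Ireb2) to 0.66 (Hmox1), with 0.17 for Ftl1. The genes most like Tfrc were Chchd4 (0.997), Mtch2 (0.980), Fam162a (0.980), Eef1d (0.978) and the pseudogene Gm9755 (0.978). Picked in the same way, they were highest in the Irf2 KO libraries.

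**Figure D5:**
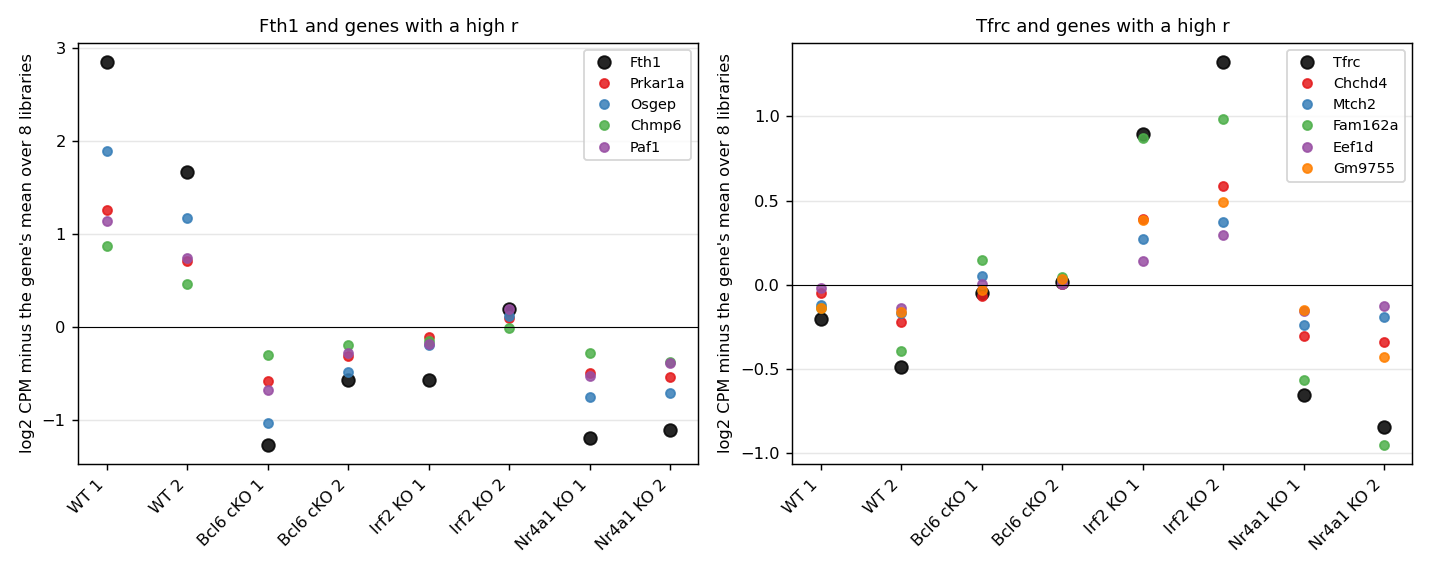
Level of Fth1 (left) and Tfrc (right) in each library with 4 and 5 genes of high Pearson r, as log2 CPM minus each gene's mean over the 8 libraries. The genes beside Fth1 are high in both wild type libraries and more so in replicate 1, and those beside Tfrc are high in the 2 Irf2 KO libraries.

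Promoter letters for the targeted factors were looked for in RefSeq promoter windows of 300 bases around the transcription start (build GRCm38.p6), which were found for 7 of the 10 genes (not for Slc11a2, Slc40a1 and Hmox1). On both strands, the interferon-stimulated response element core (GAAA, any 2 bases, GAAA) was in 1 of 3 Ncoa4 windows and in none of the other genes' windows, beside 3.44% of 32851 promoters. The NR4A element AAAGGTCA (1.51% of promoters) and the BCL6 core TTCCNNGAA (4.81%) were in no member's window, which says only that those letters are not there.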

How the data were processed

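Bulk RNA from sorted Ly6C-high monocytes (8 libraries, 4 genotypes) was measured by paired-end sequencing of amplified full-length cDNA, per the labels' protocols. The submitters' processing notes name STAR, featureCounts, Salmon and limma with build mm10, without their roles. The kit named there does not mark strand, so reads of overlapping genes cannot be told apart; Ftl1 and Slc11a2 overlap annotated genes (Gm10252, Gm22133 and Gm5475) that have no row in the table.

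The deposited table holds log2 CPM per library, which the authors made as the log2 of reads plus 0.5 over a scaled library total. Reads were recovered by undoing this, with the lowest value of a library taken as 0 reads, and 100% came within 0.01 of whole numbers. Of 13789 rows, 45 repeats were left out. The authors' log2 fold changes, p-values and adjusted p-values served only as an alternative; other statistic columns they deposited, such as a score of evidence, were not used here.

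The members, gene lists and marker lists were chosen with earlier results of these data known. Named genes were all members, up to 4 genes per pathway list with the smallest p, the 3 targeted genes and the 5 genes most like Fth1 and Tfrc; some of these are not reported here. limma 3.58.1 (R 4.3.3) was fitted to log2 CPM of all 8 libraries (4 group means, trended prior variance) for 12752 genes with a geometric mean of at least 1 CPM. Benjamini-Hochberg adjustment ran over all of them per comparison, with a threshold of 0.05 and 4 residual plus 4.66 prior degrees of freedom. Fits that leave out 1 library assume that the lone library of its group varies like the others. The procedure was tested on simulated data. Positions, lengths and sequences came from GENCODE M21 on GRCm38. Plots used matplotlib 3.10.9 (Python 3.11.15).

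Alternatives were no trend, no filter, a filter of 4 CPM, quantile normalization, centring on library medians, log2(CPM + 1), library weights, only the 2 groups compared, a replicate block, GC content and length regressed out, limma voom on recovered reads, the authors' results, and leaving out each library.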

Additional observations from a re-analysis of the deposited data

How the results depend on the processing

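Of 16 calls of members, 5 were kept under all alternatives run, 11 were lost under at least 1 and 0 changed sign. Of 23 calls of named pathway genes, 11 were kept and 12 lost somewhere, with 0 changes of sign. With 2 libraries per group, leaving out 1 moved most counts. Without 1 library, calls among the 9 members other than Fth1 ranged from 0 to 2 in Bcl6 cKO (main 1), 3 to 5 in Irf2 KO (5) and 0 to 0 in Nr4a1 KO. Among all 10 members they ranged from 0 to 4 for Irf2 KO against Bcl6 cKO (4), 0 to 2 for Nr4a1 KO against Bcl6 cKO (1) and 2 to 5 for Irf2 KO against Nr4a1 KO (5). Pathway calls ranged from 0 to 3 (2), 7 to 14 (12) and 6 to 9 (9) in Bcl6 cKO, Irf2 KO and Nr4a1 KO. Fth1 ranged from -3.77 to -2.59, -3.04 to -1.86 and -4.00 to -2.82 against wild type. With no trend, the counts were 2 members for Irf2 KO against Bcl6 cKO, 3 for Irf2 KO against Nr4a1 KO and 1 pathway gene in Bcl6 cKO. With only the 2 groups compared, they were 2 members in Bcl6 cKO and 3 for Irf2 KO against Nr4a1 KO. Centred on library medians, they were 1 member and 14 pathway genes in Nr4a1 KO. The causes were not tested.

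Signs turned only for differences that were not called. Ftl1 in Bcl6 cKO became 0.010 (quantile), 0.044 (centred) and 0.14 (GC and length), and ranged from -0.084 to 0.032 without 1 library. Ftl1 in Nr4a1 KO became 0.047, 0.057 and 0.28 under the same scalings and correction and 0.014 by voom, and ranged from -0.15 to 0.0059. Ftl1 in Nr4a1 KO against Bcl6 cKO became 0.036, 0.014, 0.15 and 0.029, and ranged from -0.12 to 0.032. Ncoa4 in Nr4a1 KO became 0.047 (quantile) and 0.027 (centred), and in Irf2 KO against Nr4a1 KO 0.070 (GC and length), with a range from -0.077 to 0.033. Slc11a1 in Nr4a1 KO became 0.18, and Ireb2 in Irf2 KO against Bcl6 cKO 0.071 (GC and length). Without 1 library, Slc11a2 ranged from -0.30 to 0.030 in Nr4a1 KO and from -0.070 to 0.26 against Bcl6 cKO, and Slc40a1 ranged from -0.58 to 0.74 in Nr4a1 KO. Hmox1 in Irf2 KO against Bcl6 cKO became -0.0093 (quantile) and -0.0024 (GC and length), and ranged from -0.27 to 0.28. It ranged from -0.0044 to 0.26 in Nr4a1 KO against Bcl6 cKO and from -0.40 to 0.15 in Irf2 KO against Nr4a1 KO. Fth1 in Nr4a1 KO against Bcl6 cKO ranged from -0.58 to 0.12.

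Same-numbered libraries correlated at r from -0.003 to 0.183 in their deviations from the group means, so the numbers were not taken to pair them. With the replicate block, member calls were 1, 5 and 0 in Bcl6 cKO, Irf2 KO and Nr4a1 KO against wild type, pathway calls were 2, 12 and 10, and Fth1 was at -3.18, -2.45 and -3.41. With a filter of 4 CPM Slc40a1 was not tested, and the authors' table gives no comparison between knockouts. Slc40a1, with 41 to 494 reads per library, is the member for which depth limits precision most.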

Other observations

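Copies of the ferritin genes had rows of their own, and since reads can be split between near-identical copies their values are uncertain. Ftl1-ps1 stood at 6.03 and 6.04 log2 CPM in wild type, 6.42 and 6.10 in the libraries labelled Bcl6 cKO, 6.06 and 5.86 in Irf2 KO and 6.57 and 6.27 in Nr4a1 KO. Ftl1-ps2 stood at 4.27 and 4.44, 4.35 and 4.10, 3.77 and 3.96, and 4.35 and 4.18 in the same order, with both Irf2 KO libraries below the other 6. Ftl2-ps had 328 and 323 reads in wild type and 206 to 373 in the knockouts. Fth-ps2, a copy of the heavy chain, had 102 and 75 reads in wild type, 34 and 48 in the libraries labelled Bcl6 cKO, 37 and 57 in Irf2 KO and 61 and 63 in Nr4a1 KO. These were few beside the 6867 to 129177 reads of Fth1.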
